A study of Homo sapiens with 7 samples.

Results

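The alpha-like and beta-like globin genes were examined in RNA-seq of HEL cells, a human erythroleukemia line, with and without a CRISPR guide against WTAP. The members were the 9 globin symbols HBZ, HBA1, HBA2, HBQ1, HBE1, HBG1, HBG2, HBD and HBB, of 24819 gene symbols listed in the files of all 7 samples. HBZ, HBA1, HBA2 and HBQ1 make up the 4 alpha-like members, and the remaining 5 are beta-like. HBA1 with HBA2, and HBG1 with HBG2, are near-identical copies, so each pair was summed and 7 values were tested in place of 9. All 9 genes had reads in every sample.

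There were 3 groups. The control group (NTC, 3 samples) received Cas9 with a non-targeting guide, and the groups WTAP sg1 (2 samples) and WTAP sg2 (2 samples) received Cas9 with 1 of 2 guides against WTAP. The labels name HEL for the NTC samples alone, and for the WTAP samples the line was taken from the methods of the study. Per those methods guides were delivered by lentivirus from lentiCRISPRv2, which expresses Cas9 and the guide together. Whether cells were kept as pools or clones, how long after transduction RNA was taken, and whether replicates were separate cultures are not given in the sources used here, so p-values measure the spread between these samples, which may be technical. WTAP belongs to the writer complex that methylates adenosine in mRNA at the N6 position (m6A), and the comparison asks what happens to globin mRNA when that subunit is targeted.

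Hemoglobin is a tetramer of alpha-like and beta-like chains around heme. The alpha-like genes lie together on chromosome 16 and the beta-like genes on chromosome 11, and each cluster is arranged roughly in the order in which its genes are used in development. In the embryo the zeta chain (HBZ) pairs with the epsilon chain (HBE1), in the fetus the alpha chains (HBA1, HBA2) pair with the gamma chains (HBG1, HBG2), and after birth alpha pairs mostly with beta (HBB) and to a minor degree with delta (HBD). Theta (HBQ1) is an alpha-like gene with no established place in hemoglobin. Erythroleukemia lines such as HEL are known for embryonic and fetal rather than adult globin.

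On GRCh37, the assembly that hg19 corresponds to, HBZ lies at chr16:202643-204502, HBA2 at chr16:222875-223709, HBA1 at chr16:226679-227521 and HBQ1 at chr16:230458-231178, all on the plus strand. HBB lies at chr11:5246694-5248301, HBD at chr11:5254068-5255713, HBG1 at chr11:5269499-5271087, HBG2 at chr11:5274418-5276011 and HBE1 at chr11:5289575-5291175, all on the minus strand. Every member is protein-coding and has 3 exons, with an exon length between 528 bases (HBQ1) and 798 bases (HBZ). The coding sequences of HBA1 and HBA2 were identical over 426 positions, and those of HBG1 and HBG2 differed at 2 of 441. In windows of 50 bases, the read length that the methods give for the splicing analysis, 18.4% of the HBA1 transcript and 32.3% of the HBG1 transcript were not also in the partner. HBB and HBD were 93.0% identical over coding positions, and 97.1% of HBB windows were absent from HBD.

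The guides are shown because they define the groups. Those that the study marks for single use against WTAP are given with the 3 bases of the protospacer-adjacent motif (PAM) that follow them in the genome in capitals. Which of them is sg1 and which is sg2 is not given in the sources used here. The first matches GRCh37 chr6:160157306-160157325 on the plus strand, in coding exon 2 of 8 of WTAP. The second matches chr6:160174569-160174588 on the minus strand, in coding exon 7.
sgWTAP_1: cgaagaacctcttcccaagaAGG
sgWTAP_10: aagttgtgcaatacgtccctGGG

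Of the 9 members, the RefSeq promoter table used here (GRCh38.p14) had an entry for HBD, and it also held the alpha-like relative HBM. The 250 bases before each start are shown because HBD was 1 of the 2 values that did not change past the threshold, and HBM had no reads. Capitals mark matches on either strand to the letters searched, which were CCAAT (the core motif of NF-Y), GATAA (of GATA factors), CACCC (of KLF factors) and TATAA (of the TATA box). The windows are chr11:5234484-5234733 (HBD, minus strand) and chr16:165728-165977 (HBM, plus strand).
HBD: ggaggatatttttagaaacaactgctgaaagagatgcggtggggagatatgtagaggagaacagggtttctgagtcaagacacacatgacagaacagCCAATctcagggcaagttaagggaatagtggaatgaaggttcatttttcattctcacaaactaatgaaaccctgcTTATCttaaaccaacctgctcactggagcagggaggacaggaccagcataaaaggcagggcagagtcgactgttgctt
HBM: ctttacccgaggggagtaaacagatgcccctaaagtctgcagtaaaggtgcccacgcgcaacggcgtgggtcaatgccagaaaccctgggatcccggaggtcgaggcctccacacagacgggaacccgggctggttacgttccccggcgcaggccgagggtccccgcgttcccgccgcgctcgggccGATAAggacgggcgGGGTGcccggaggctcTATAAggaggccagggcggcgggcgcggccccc
The HBD window held CCAAT 153 bases before the start and GATAA on the reverse strand at 78 bases. The HBM window held GATAA at 63 bases, CACCC on the reverse strand at 49 bases and TATAA at 33 bases. Such short words are frequent: over 35116 promoter windows of this length, 32.0% held CCAAT, 20.4% GATAA, 54.7% CACCC and 18.9% TATAA. A match is a description of the letters, not of a bound site.

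Each file gave CPM (counts per 1000000 counted reads), and the samples held 15.9 to 41.0 M reads, with every NTC sample deeper than every WTAP sample. The floor of 3 reads, under which a value is not told from counting noise, was 0.0732 to 0.189 CPM. The NTC and WTAP files also listed different numbers of symbols, with 551 more in the WTAP files. Depth, symbol list and WTAP guide therefore split the samples in the same way and cannot be told apart. WTAP mRNA was between 136 and 149 CPM in NTC and between 84.8 and 140 CPM in the WTAP samples (log2 fold change -0.33, SE 0.15, limma adjusted p 0.0801). The pooled fall was called after median-of-ratios rescaling (log2 -0.54, adjusted p 0.00885) and by DESeq2 (log2 -0.48, adjusted p 0.0055). By guide, WTAP mRNA fell with sg2 (log2 -0.53, limma adjusted p 0.00429) and not past the threshold with sg1 (log2 -0.13, adjusted p 0.417), and the guides did not differ past it (log2 -0.41, adjusted p 0.0899). The sg2 call was lost without NTC replicate 1, NTC replicate 3 or sg2 replicate 1 (adjusted p 0.0129, 0.0181 and 0.0616). A count over the whole transcript does not read small Cas9 deletions and so does not check the knockout. Less RNA per cell and fewer globin-expressing cells cannot be told apart in bulk RNA.

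Globin mRNA was far lower with both WTAP guides, and its composition differed as well. Summed over the 9 genes it took 0.258%, 0.342% and 0.287% of all reads in the NTC samples. In the WTAP samples it took 0.0110% and 0.00624% with sg1 and 0.00855% and 0.00701% with sg2. The mean sum went from 2958 ± 429 CPM (SD, n = 3) to 82.0 ± 21.1 CPM (SD, n = 4). As a log2 level per kilobase (kb) of exon the total was 12.2 ± 0.214 and 7.07 ± 0.360, a difference of -5.17 with no overlap between groups. An exact two-sided permutation test over samples gave p = 0.0571, which is the smallest p that 3 against 4 samples can give, so the design cannot reach 0.05 and the test shows only complete separation.

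Of the 7 tested values, 5 were lower in WTAP than in NTC past an adjusted p of 0.01 and 0 were higher. The test was limma on log2(CPM + 1), adjusted over 12629 rows. Both counts were the same with limma at an unadjusted p under 0.05 and with edgeR at an adjusted p of 0.01. With edgeR at an unadjusted p under 0.05, 6 were lower and 0 higher. Among all rows tested, 19.8% were called lower and 32.6% higher. With median-of-ratios rescaling the same shares were 28.2% and 25.6%, since the median log2 fold change of all rows moved from 0.15 to -0.04. The 5 globin calls held under both scalings. They were HBZ, the HBA pair, HBQ1, HBE1 and the HBG pair, and in each of them the highest WTAP sample lay below the lowest NTC sample, as in 26.2% of all rows. HBD and HBB, the genes of adult life in the beta cluster, did not pass.

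**Figure D1:**
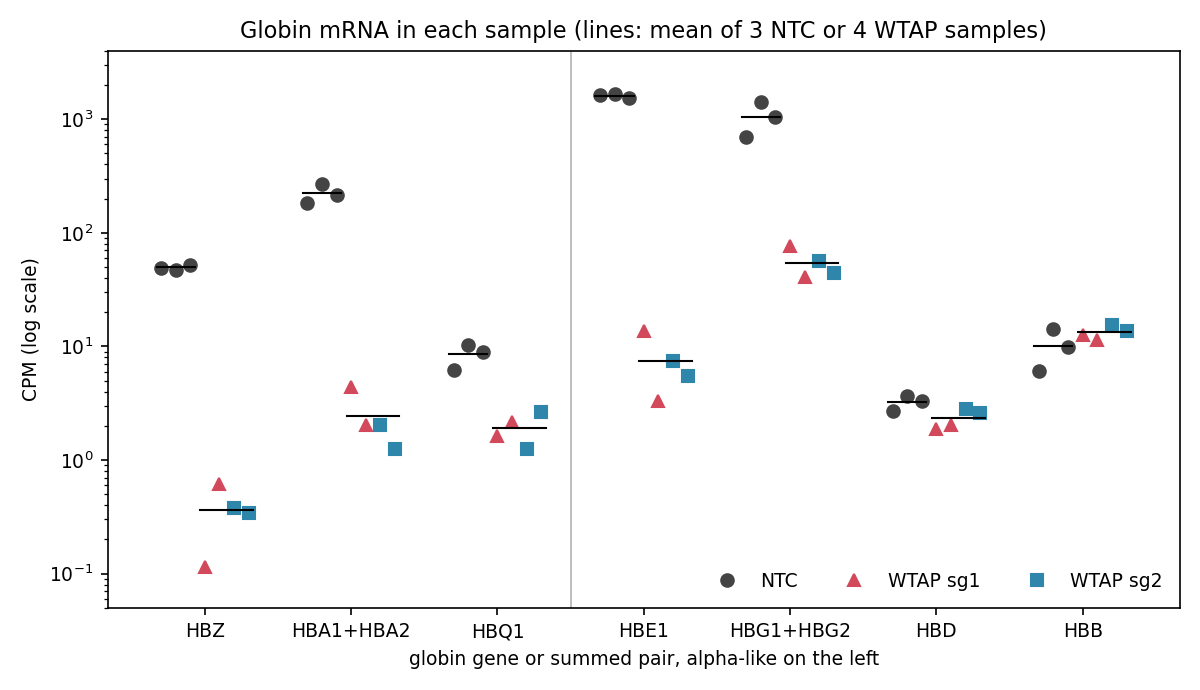
CPM (log axis) of each globin gene or summed pair in the 3 NTC samples and the 4 WTAP samples, with the mean of each group as a line. HBZ, the HBA pair, HBQ1, HBE1 and the HBG pair are lower in every WTAP sample than in every NTC sample, whereas the ranges of HBD and HBB overlap.

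The widest gap among the globin values was that of HBE1. HBE1, the embryonic beta-like chain, stood at 1636, 1656 and 1542 CPM in the NTC samples. With sg1 it stood at 13.6 and 3.33 CPM, and with sg2 at 7.44 and 5.49 CPM. The NTC samples were close together and ranked HBE1 at position 32 of 12629 by mean CPM, whereas the WTAP samples ranked it at 10190. Mean CPM was 216-fold lower, from 1612 ± 60.8 (SD, n = 3) to 7.46 ± 4.42 (SD, n = 4), and the closest samples of the groups were still 113-fold apart. On the log2(CPM + 1) scale HBE1 fell by 7.72 (SE 0.32, limma adjusted p 5.32e-08), the lowest fold change of all 12629 rows. Within WTAP the highest HBE1 value was 4.08 times the lowest, and both were sg1 samples.

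HBZ, the embryonic alpha-like chain, stood at 49.2, 46.8 and 52.4 CPM in NTC. The sg1 samples held 0.114 and 0.617 CPM and the sg2 samples 0.378 and 0.343 CPM. These are 3 to 10 reads per WTAP sample, against 1746 or more per NTC sample, so HBZ passed the filter on low values (a mean of 1 CPM) through the NTC samples alone. The sg1 sample with 3 reads was at the level of counting noise. HBZ fell by 5.22 on the log2(CPM + 1) scale (SE 0.15, limma adjusted p 7.29e-09), a scale that understates changes down to such levels. With a pseudocount of 0.1 in place of 1 the log2 fold change was -6.87, and with a pseudocount of 5 it was -3.34.

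The fetal gamma genes fell less far and were the most abundant globin mRNA in every WTAP sample. The HBG pair stood at 694.5, 1424 and 1041 CPM in NTC. With sg1 it stood at 76.0 and 40.7 CPM, and with sg2 at 56.1 and 44.2 CPM. The NTC samples thus differed among themselves by up to 2.05 times, more than for any other globin value that fell, and the WTAP samples by up to 1.87 times. Mean CPM was 19.4-fold lower, and the closest samples were 9.14-fold apart. The pair fell by 4.24 on the log2 scale (SE 0.26, limma adjusted p 6.71e-07). Entered as separate rows, HBG2 (log2 -4.33) and HBG1 (log2 -3.47) each fell, although how reads that match both copies were counted is not given in the sources used here.

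Between the copies, HBG2 was the more abundant in every sample. Per kb it took 87.5%, 86.1% and 91.7% of the pair in NTC, 82.8% and 82.6% with sg1 and 81.6% and 81.9% with sg2. The WTAP samples were within 1.16 points of each other and all lay below NTC. This share rests on the part of each transcript that tells the copies apart, and it was not tested.

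The adult alpha genes fell with the embryonic genes. The HBA pair stood at 181, 267 and 217 CPM in NTC. The sg1 samples held 4.42 and 2.04 CPM and the sg2 samples 2.02 and 1.26 CPM. That is 22 to 116 reads per WTAP sample, and the mean was 91.1-fold lower. The pair fell by 6.08 on the log2(CPM + 1) scale (SE 0.26, limma adjusted p 6.65e-08), on that scale the fifth lowest fold change among all rows. Its order with HBZ depended on the pseudocount. At 0.1 the log2 fold change was -6.58 for the pair and -6.87 for HBZ. As separate rows HBA1 (log2 -5.72) and HBA2 (log2 -5.61) each fell on that scale, and mean CPM was 80.4-fold and 122-fold lower. HBA2 held 4 to 37 reads per WTAP sample (mean 0.629 CPM). It thus passed the filter on low values through the NTC samples alone. How reads that match both copies were counted is not given. HBA1 took between 59.6% and 71.5% of the pair per kb in NTC and between 68.1% and 87.9% in WTAP, ranges that overlap.

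HBQ1, the theta gene, was a minor mRNA throughout. It stood at 6.25, 10.3 and 8.92 CPM in NTC. The values were 1.64 and 2.16 CPM for sg1 and 1.26 and 2.63 CPM for sg2. The groups did not overlap, but the mean was only 4.42-fold lower, the least of the globin values that fell. HBQ1 fell by 1.70 on the log2 scale (SE 0.21, limma adjusted p 6.55e-05).

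The adult beta genes stood apart from the rest of their family. HBB, the adult beta chain, stood at 6.12, 14.2 and 9.95 CPM in NTC. With sg1 it was at 12.6 and 11.5 CPM, and with sg2 at 15.4 and 13.7 CPM. The NTC range enclosed 3 of the 4 WTAP samples. The log2 fold change was 0.42 (SE 0.23, limma adjusted p 0.129). Median-of-ratios rescaling gave 0.23, and the values lay between 0.14 and 0.68 over all alternatives, none of which brought it past the threshold. HBB held position 8970 of 12629 by mean CPM in NTC and 9082 in WTAP.

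HBD, the delta chain, was the lowest beta-like mRNA in NTC. It stood at 2.68, 3.67 and 3.27 CPM there. The sg1 samples held 1.87 and 2.04 CPM and the sg2 samples 2.84 and 2.57 CPM. Both sg1 samples lay below all NTC samples, and 1 of the sg2 samples lay within their range. The log2 fold change over both guides was -0.34 (SE 0.16, limma adjusted p 0.0825). For sg1 alone it was -0.51 (adjusted p 0.016), and the call was made under median-of-ratios rescaling (log2 -0.65, adjusted p 0.00427) and by edgeR on recovered reads (log2 -0.90, adjusted p 0.00899).

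These unequal changes altered the composition of beta-like mRNA, taken as CPM per kb of exon. The embryonic share (HBE1) was 68.7%, 52.0% and 57.9% in NTC, 12.5% and 5.55% with sg1 and 8.73% and 8.0% with sg2. The fetal share (HBG pair) was 31.0%, 47.5% and 41.6% in NTC, 74.3% and 72.1% with sg1 and 70.0% and 68.5% with sg2. The adult share (HBB with HBD) was 0.368%, 0.558% and 0.495% in NTC, 13.2% and 22.4% with sg1 and 21.2% and 23.5% with sg2. By exon length, beta-like mRNA was thus mostly embryonic in NTC and mostly fetal in WTAP, and no share overlapped between the groups. If reads shared by HBG1 and HBG2 had been dropped in counting, the pair would be understated. Taken over the 50-base windows that tell the copies apart, an alternative chosen after seeing the data, the mean embryonic, fetal and adult shares were 32.7%, 67.0% and 0.254% in NTC and 3.46%, 88.5% and 8.03% in WTAP. The direction of each difference was the same, but the order of HBE1 and the HBG pair in NTC was not.

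The mean embryonic share was 59.5% ± 8.46 in NTC (SD, n = 3) and 8.70% ± 2.88 in WTAP (SD, n = 4). The mean fetal share was 40.0% ± 8.37 and 71.2% ± 2.53, and the mean adult share 0.474% ± 0.0969 and 20.1% ± 4.69. Each of the 3 differences had an exact permutation p of 0.0571 (0.0571 after adjustment over 7 shares and ratios), again the smallest possible. The higher adult share went with HBB and HBD levels that did not pass the test, beside a beta-like total that went from 4405 to 129 CPM per kb. HBB made up 0.356% of beta-like mRNA in NTC and 17.0% in WTAP, and HBD 0.118% and 3.06%. Shares of reads rested on 95887 to 115633 beta-like reads per NTC sample and 933 to 2731 per WTAP sample, with 95% Wilson intervals at most 0.614 and 5.83 points wide. Intervals and floors cover counting error only.

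**Figure D2:**
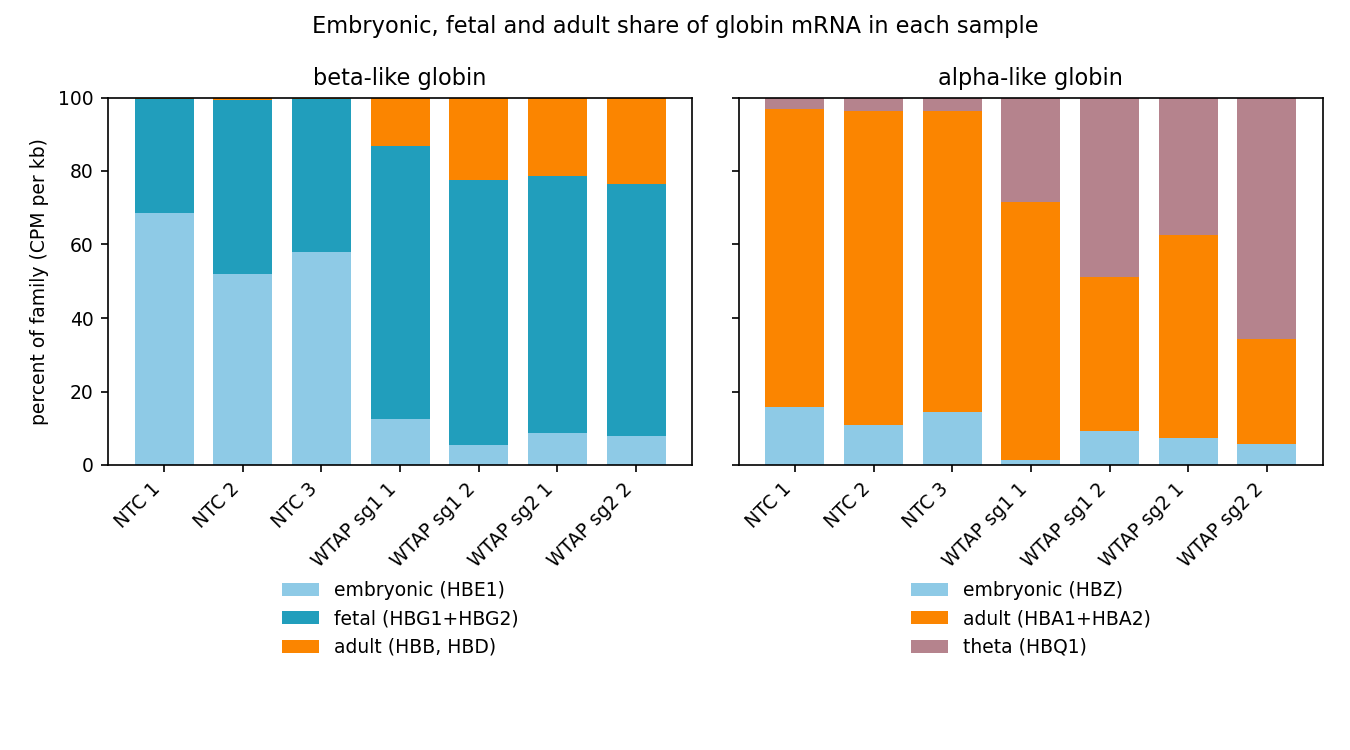
Stacked bars give, for each sample, the percent of beta-like (left) and alpha-like (right) globin mRNA, as CPM per kb of exon, that is embryonic, fetal, adult or theta. The fetal part leads in all 4 WTAP samples and the embryonic part in all 3 NTC samples, and on the right theta takes 28.4% to 65.6% in WTAP.

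Among alpha-like mRNAs the adult HBA pair took 81.1%, 85.5% and 82.0% in NTC. It took 70.2% and 42.1% with sg1 and 55.0% and 28.7% with sg2. The embryonic share (HBZ) was 15.9%, 10.8% and 14.3% in NTC, 1.31% and 9.21% with sg1 and 7.45% and 5.66% with sg2. Theta took the balance, 3.45% ± 0.348 in NTC (SD, n = 3) and 45.1% ± 16.0 in WTAP (SD, n = 4). The mean adult share was 82.9% ± 2.36 and 49.0% ± 17.8, and the embryonic share 13.7% ± 2.58 and 5.91% ± 3.39, each with an exact permutation p of 0.0571.

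The alpha-like composition depended on theta. With HBQ1 left out, the adult share was 85.8% in NTC and 87.9% in WTAP, so the direction turned, and the embryonic share was 14.2% and 12.1% (exact permutation p = 0.914 for both). Depth also limited these values, as the WTAP samples held 58 to 162 alpha-like reads each, theta included. The Wilson intervals of the shares with theta were up to 24.8 points wide. The WTAP samples also differed among themselves: HBZ and the HBA pair had 3 and 116 reads in sg1 replicate 1, and 10 and 33 in sg1 replicate 2. A change of the balance between HBZ and the HBA pair was not detected, and with such values one could be missed.

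Alpha-like mRNA was less abundant than beta-like mRNA in every sample. The ratio of alpha-like to beta-like CPM per kb was 0.101, 0.106 and 0.107 in NTC, 0.0625 and 0.0871 with sg1 and 0.0465 and 0.0689 with sg2. Every WTAP sample lay below every NTC sample. The log2 ratio was -3.25 ± 0.0424 in NTC (SD, n = 3) and -3.95 ± 0.375 in WTAP (SD, n = 4), with an exact permutation p of 0.0571. The groups overlapped when the length of all annotated exons was used (difference -0.37, exact permutation p = 0.229). The difference was -1.74 when each transcript was counted only over the windows that its partner does not hold, an alternative chosen after seeing the data. The level of the ratio itself depends on how reads shared by HBA1 and HBA2 were counted, which is not given.

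Ordered by mean CPM per kb of exon length in NTC, the values were HBE1 (2587 ± 97.6), the HBG pair (1797 ± 623), the HBA pair (384 ± 74.3), HBZ (62.0 ± 3.55), HBQ1 (16.1 ± 3.92), HBB (16.1 ± 6.46) and HBD (5.18 ± 0.801; SD, n = 3). HBQ1 and HBB were the only neighbours in that order whose samples overlapped. In WTAP the order was the HBG pair (92.6 ± 27.2), HBB (21.1 ± 2.64), HBE1 (12.0 ± 7.09), the HBA pair (4.22 ± 2.38), HBD (3.75 ± 0.730), HBQ1 (3.64 ± 1.13) and HBZ (0.455 ± 0.258; SD, n = 4). Only the first and the last of these stood clear of their neighbours, and the neighbours from HBB to HBQ1 overlapped. By exon length HBE1 went from 1.57 times the HBG pair on average in NTC to 0.122 times in WTAP, and HBB went from sixth to second place. The first place of HBE1 in NTC turned when the windows that tell the gamma copies apart were used.

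Each guide was then compared with NTC, and the guides with each other. The same 5 values fell with sg1 (19.0% of all rows called lower) and with sg2 (22.1%), in comparisons that share the NTC samples. HBE1 had a log2 fold change of -7.66 with sg1 and -7.77 with sg2, the HBG pair -4.16 and -4.31, HBZ -5.23 and -5.21, HBQ1 -1.69 and -1.70, and the HBA pair -5.76 and -6.40. Tested directly, sg2 against sg1, 0 of 7 globin values passed with limma, against 1.93% of all rows, and 0 with edgeR. At an unadjusted p under 0.05 it was 1 value by either tool. The farthest apart was the HBA pair, with a difference of -0.64 (SE 0.27, adjusted p 0.148), and the SE of the others was between 0.17 and 0.41. With 2 samples a guide, such differences could not be resolved below these errors. HBB had a log2 fold change of 0.30 with sg1 and 0.55 with sg2, and the latter passed only without NTC replicate 2 (log2 0.81, adjusted p 0.00977). Among the NTC samples that replicate held the highest CPM of every globin value other than HBZ.

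**Figure D3:**
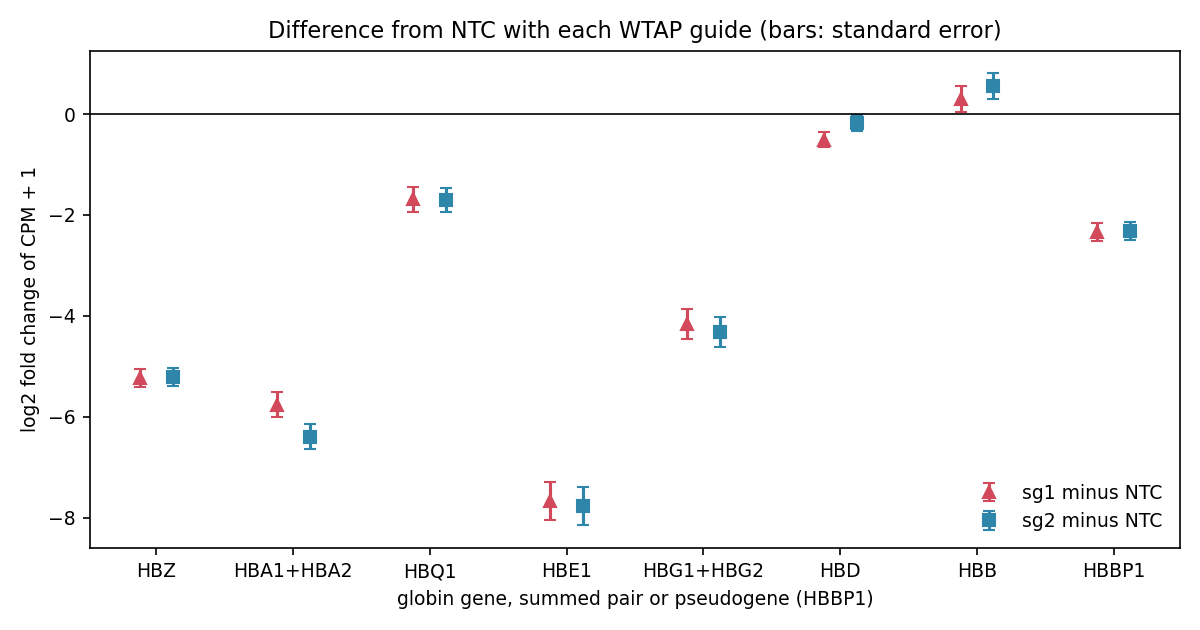
Log2 fold change of CPM + 1 against NTC for sg1 and sg2, with the standard error of the 3-group limma fit, for each globin gene, summed pair and the pseudogene HBBP1. The symbols of both guides lie close together for each gene, from -7.77 (HBE1, sg2) to 0.55 (HBB, sg2).

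Of the other globin family genes searched, 1 of the 5 listed in the files passed the filter on low values. HBBP1, a beta-cluster pseudogene between HBD and HBG1 (chr11:5263350-5264767), stood at 95.3, 91.1 and 90.6 CPM in NTC. It stood at 21.1 and 14.4 CPM for sg1 and 21.3 and 14.6 CPM for sg2. It fell by 2.33 (SE 0.16, limma adjusted p 1.24e-06), less than the HBG pair on one side and unlike HBD on the other. HBM was listed at 0 in all samples, NGB (neuroglobin) likewise, and CYGB (cytoglobin) and MB (myoglobin) were below 1 CPM on average in both groups.

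Of 23 tested genes known to repress embryonic or fetal globin genes or to set the globin stage, 9 rose and 4 fell. Over all rows 32.6% were called higher and 19.8% lower, near the shares in this list. The median log2 fold change was 0.28 beside 0.15 for all rows. With median-of-ratios rescaling 7 rose and 6 fell, beside 25.6% and 28.2% of all rows, with a median of 0.07. BCL11A, the repressor of the gamma genes, rose from 0.0700 ± 0.0556 CPM (SD, n = 3) to 33.4 ± 5.63 CPM (SD, n = 4; log2 4.99, limma adjusted p 1.01e-08). NFIX (log2 1.93), IKZF1 (1.84) and MYB (1.67), which act in progenitors and in globin switching, also rose. HDAC1, a histone deacetylase of repressor complexes, fell (log2 -1.58). BCL11A had 1, 2 and 5 reads in the NTC samples and 476 to 730 reads in the WTAP samples. It thus passed the filter on low values through the WTAP samples alone.

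Of 19 activators that bind globin promoters or enhancers, 6 fell and 4 rose, beside 19.8% and 32.6% of all rows. The median log2 fold change was -0.20. With median-of-ratios rescaling it was -0.41, and 9 fell and 3 rose, beside 28.2% and 25.6% of all rows. MAFK, the small Maf partner of NF-E2 (log2 -1.44), TAL1 (-1.28) and KLF1 (-1.01) fell, whereas the coactivators CREBBP (1.42) and EP300 (0.93) rose. By guide, KLF1 passed with sg1 (log2 -1.32, limma adjusted p 0.00117) and not with sg2 (log2 -0.70, limma adjusted p 0.0307). Tested directly, sg2 against sg1, KLF1 did not differ past the threshold (log2 0.62, limma adjusted p 0.168). Of 5 tested genes that handle globin chains or globin mRNA, 2 fell and 0 rose, beside 19.8% and 32.6% of all rows. The 2 that fell were USP15, a deubiquitinase, from 101 ± 6.68 to 1.74 ± 0.578 CPM (log2 -5.24), and PCBP2, a poly(C)-binding protein (log2 -0.54). AHSP, the alpha chain chaperone, was below 0.1 CPM on average in both groups, so it was near 0 also in the cells with alpha globin mRNA.

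The neighbours of the clusters were compared with the globin genes between them. Next to the alpha cluster, 5 of 7 tested genes fell and 1 rose, beside 19.8% and 32.6% of all rows. The median log2 fold change was -0.73 (-0.94 with median-of-ratios rescaling). NPRL3, whose introns hold the main alpha-globin enhancers, fell by 1.15 and POLR3K by 1.12, LUC7L by 0.93 and SNRNP25 by 0.73. ITFG3 (the older symbol of FAM234A) rose by 1.01. Each of these differences was smaller than that of HBZ, the HBA pair and HBQ1. NPRL3 and MPG overlap on opposite strands, and whether counting used strand is not stated. Next to the beta cluster lie olfactory receptor genes, and the 6 listed in the files were at 0 in all samples.

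**Figure D4:**
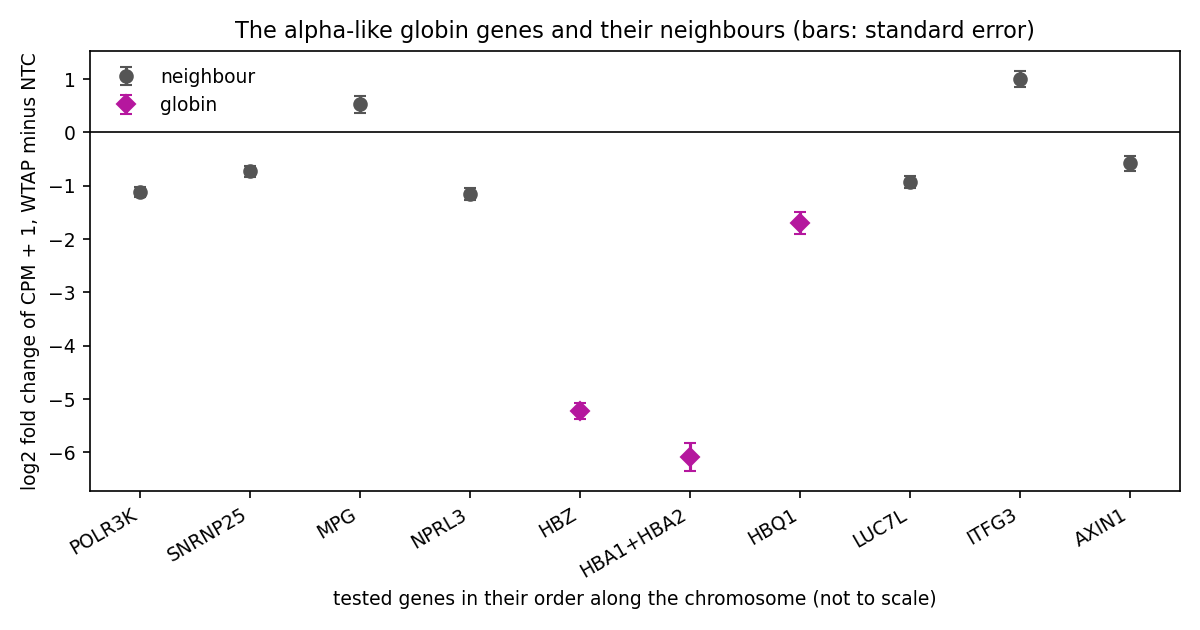
Log2 fold change of CPM + 1 (WTAP minus NTC, standard error from limma) for the tested genes of the alpha-like cluster and its neighbours in chromosomal order. The neighbours lie between -1.15 (NPRL3) and 1.01 (ITFG3), and the globin values between -6.08 (HBA pair) and -1.70 (HBQ1).

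Genes with the pattern most like a globin pair were found by the root mean square (RMS) difference between log2(CPM + 1) profiles centred on each gene's mean over the 7 samples. Nearest to the HBG pair were ALAS2 (RMS difference 0.338), the erythroid enzyme of heme synthesis, then ECI1 (0.358), SLC25A37 (0.362), which imports iron into mitochondria, B3GNT7 (0.386) and EPB42 (0.397), a red cell membrane protein. Nearest to the HBA pair were MEF2C (0.402), CD36 (0.491), USP15 (0.509), MAGEA6 (0.522) and LMO7 (0.548). ALAS2, ECI1, CD36 and MAGEA6 averaged 0.642, 0.798, 0.622 and 0.255 CPM in WTAP. They thus passed the filter on low values through the NTC samples alone, and on the log2(CPM + 1) scale differences at such levels count for little. The likeness is mostly a like difference between the groups, as 7 samples in 2 groups give few other points.

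Markers of cell types were read beside these results. Of 7 tested erythroid markers 6 fell and 0 rose, beside 19.8% and 32.6% of all rows. The median log2 fold change of these markers was -1.82. ALAS2 went from 40.7 ± 5.69 to 0.642 ± 0.307 CPM, and it passed the filter on low values through the NTC samples alone. GATA1 was at 257 ± 32.0 and 232 ± 10.7 CPM and did not pass the threshold. SLC4A1, the red cell anion exchanger, was below 1 CPM on average in both groups. The summed erythroid markers ranged from 1393 to 1443 CPM in NTC and from 691 to 954 CPM in WTAP.

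Of 6 megakaryocyte markers 1 fell (PF4, log2 -2.35) and 1 rose, beside 19.8% and 32.6% of all rows. The sum of this list ranged from 1784 to 1831 CPM in NTC and from 1708 to 2776 CPM in WTAP. Of 3 tested myeloid markers 2 rose, SPI1 (log2 0.99) and CEBPA (log2 3.61), beside 32.6% of all rows. CEBPA averaged 0.803 CPM in NTC, so it passed the filter on low values through the WTAP samples alone. MPO, ELANE and AZU1 were at or near 0 in both groups. The sum of the myeloid list was 228 to 238 CPM in NTC and 309 to 383 CPM in WTAP. Of 6 lymphoid markers 1 was tested and rose (CD79A, log2 2.32), beside 32.6% of all rows. The lymphoid list summed to 3.93 to 5.20 CPM in NTC and 15.8 to 37.7 CPM in WTAP, and MS4A1 was at 0 in all samples. The part of these lists in the globin results was not tested.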

How the data were processed

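RNA-seq of 7 samples was analysed. Per the study's methods and the submitters' processing notes, TopHat2 (hg19) and HTSeq (UCSC genes) were the aligner and counter, and the authors deposited CPM. The notes also name edgeR, without a role in these files. The methods use edgeR for the screen and for ribosome profiling, and DESeq2 for differential expression in RNA-seq. Versions of these tools are not given in the sources used here. The deposited CPM summed to 1000000 per sample and 100% of values were whole multiples of 1 read (tolerance 0.05), from which reads were recovered. The library kit is stranded, and the counting mode and the handling of reads that match several genes are not given. The labels and the methods name different RNA extraction kits.

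Groups and replicate numbers came from the sample titles. Replicates of a group differed by more than sampling noise (chi-square per degree of freedom of 12.5 or more). The main test was limma 3.58.1 (R 4.3.3) with a mean-variance trend on log2(CPM + 1), over 12629 rows with a mean of at least 1 CPM, Benjamini-Hochberg adjustment and a threshold of 0.01. WTAP was compared with NTC in 2 groups, and guides were compared in a 3-group fit. Both near-identical pairs were summed first. Levels of different genes were compared per kb of the exon length of 1 transcript (GENCODE 44 on GRCh37). Shares were compared by exact permutation over samples (scipy 1.17.1). edgeR 4.0.16 and DESeq2 1.42.0 on recovered reads were alternatives, beside other pseudocounts, filters, scalings, lengths, a replicate block and leaving out each sample. The limma, edgeR and DESeq2 tests, but not the permutation test, were checked on simulated reads in which few rows changed. In these data 6616 of 12629 rows were called, a setting that the check does not cover.

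The 9 members were given by symbol, and the members and lists were chosen with earlier results of these data known. All members are named, with WTAP, up to 5 genes per list by size of fold change, any singled out by a count of 5 or fewer, and the 5 genes most like each pair. Markers were named after their values were seen. Sequences came from RefSeq promoters (2 of 10 symbols looked up matched) and the study's guide list. Values of 2 marker genes are not reported here, and both stay in the counts and sums of their lists.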

Additional observations from a re-analysis of the deposited data

How the results depend on the processing

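The 5 falls (HBZ, HBA pair, HBQ1, HBE1, HBG pair) kept their direction and passed the threshold under every alternative in which they were tested, in WTAP against NTC and for each guide. With a mean of at least 5 CPM, 5 values were tested and 4 fell. HBB and HBD stayed short of the threshold over both guides in all alternatives. Leaving out each sample in turn gave 5 lower globin values for WTAP, sg1 and sg2 against NTC, and 0 to 1 for sg2 against sg1, where HBE1 passed without sg1 replicate 2 (log2 -0.98, limma adjusted p 0.00733).

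Between the guides several small differences changed sign. With a sample left out, log2 differences ranged from -0.98 to 0.77 for HBE1, -0.60 to 0.28 for the HBG pair, -0.25 to 0.29 for HBZ, -0.35 to 0.33 for HBQ1 and -0.25 to 0.27 for HBBP1. HBQ1 was 0.055 and HBBP1 -0.017 with edgeR, and HBBP1 was -0.0021 with median-of-ratios rescaling. The cause was not tested.

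Rows called over all genes ranged from 5023 to 6760 (WTAP), 5052 to 6400 (sg1), 5828 to 7958 (sg2) and 0 to 388 (sg2 against sg1, 244 with all samples) when each sample was left out. The count of 0 came without sg2 replicate 1, where limma gave 2167 rows at an unadjusted p under 0.05. The replicate block gave 4424 rows against 6616 for WTAP, and 50 for sg2 against sg1, where edgeR without a block gave 200 over all samples. Deviations from the group mean correlated at r of -0.324 to 0.325 between same-numbered samples of different groups. With 2 samples a guide, the deviations of a guide mirror each other. The check therefore cannot decide whether same-numbered samples share a batch. The block changed no globin call. With it WTAP mRNA in sg2 against NTC had a limma adjusted p of 0.0158.

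The unique windows of each pair, an alternative chosen after seeing the data, moved the difference of the embryonic, fetal and adult beta-like shares to -29.3, 21.5 and 7.78 points, of the embryonic and adult alpha-like shares to -0.862 and -14.4 points, and of the log2 alpha to beta ratio to -1.74. The length of all annotated exons gave 15.7 points for the adult beta-like share and -0.37 for the ratio. Without HBQ1 the alpha-like differences were -2.12 (embryonic) and 2.12 points (adult, reversed) and the ratio -1.56. Leaving out each sample gave -54.6 to -46.3, 26.7 to 34.95 and 18.5 to 21.9 points for the beta-like shares, -9.19 to -6.24 and -40.9 to -27.1 points for the alpha-like shares, -0.84 to -0.54 for the ratio and -5.32 to -5.05 for the total. With 6 samples the smallest p of these permutations was 0.1 or 0.133.

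Lists changed as follows: chain handling gained 1 rise with a mean of at least 5 CPM, where the fall among megakaryocyte markers was lost (0), and median-of-ratios rescaling gave 2 falls among the latter.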
